A study of Mus musculus with 24 samples.

Results

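The comparison set 8 thoracic aortas of mice fed rofecoxib against 8 of mice fed chow with no added drug, all injected with interleukin-1β (IL-1β) before collection. Its members are the 16 libraries whose labels name rofecoxib or control, of 24 libraries in all, and it was described across the 14528 genes with enough reads to test, of 25941 in the deposited table. All mice were wildtype C57BL/6 adult males aged 10 to 12 weeks. Rofecoxib mice received the drug in the chow at 50 mg/kg/day for 3 weeks. Controls ate the same regular chow without it. Every mouse in both groups received 10 µg/kg IL-1β by intraperitoneal injection 4 h before death, and aortas were taken at ZT11, shortly before lights off. The 8 other libraries came from mice fed celecoxib at 100 mg/kg/day and were used here to estimate the spread and for a direct comparison. No library without IL-1β was used here, so every value is a difference between groups that both received IL-1β.

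Rofecoxib is an inhibitor of cyclooxygenase-2 (COX-2, encoded by Ptgs2), the enzyme that inflammatory signals induce to make prostaglandins and, in the vessel wall, prostacyclin. IL-1β acts through its receptor and NF-κB to switch on Ptgs2, chemokines and adhesion molecules. Sterol supply is held steady by SREBP factors, which switch on the genes of cholesterol synthesis and uptake when sterols in the endoplasmic reticulum run low. Glucocorticoids, which rise before the active phase and during inflammation, act through the glucocorticoid receptor to induce Dusp1, Fkbp5, Sgk1 and related genes. The thoracic aorta is a tube of smooth muscle lined by endothelium and wrapped in adventitia and brown-like perivascular fat, and a whole-vessel library holds RNA of all of these.

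The 16 libraries held between 21668798 and 21690485 counted reads in the deposited table, so the deposited depth was nearly equal between them. The defining smooth muscle genes were among the most abundant: Acta2, smooth muscle actin, lay between 10800 and 15760 CPM (reads of the gene per 1000000 reads of the library, after TMM scaling) in controls and between 10730 and 17400 with rofecoxib. Adipocyte genes varied between libraries of both groups. The summed level of 19 general adipocyte genes ran from 2663 CPM in control 7 to 8632 in control 4, and from 2902 CPM in rofecoxib 8 to 9494 in rofecoxib 2. Actn3, a skeletal muscle gene, was at 7.61 CPM in control 3 against a control median of 0.769. How much these genes differed between groups is given below. Many counts of calls that moved by more than 1.5 times when 1 library was left out are given with that library. Not every such count is given, so a count without this remark may also have moved. The part of fat and muscle RNA in other results was looked at only through the covariate fits. Their covariates are list levels from the same counts, and some differed between groups. The mean level of general adipocyte genes was 6.48 log2 CPM in controls and 7.27 with rofecoxib. Holding such a level can also take away part of a group difference, so a call lost there does not tell the source of the RNA. Because these are whole vessels, fewer cells of a type and less RNA per cell cannot be told apart.

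After rofecoxib, 1008 genes (6.94% of those tested) differed from control at an adjusted p under 0.05 in edgeR's quasi-likelihood test, 563 higher (3.88%) and 445 lower (3.06%). Most changes were small. The median called rise was 0.43 on the log2 scale, or 1.34-fold, and the median called fall was -0.37. Of the 1008 genes 716 differed by less than 1.5-fold and 72 by more than 2-fold, of which 58 were higher and 14 lower. The genes that fell were the more abundant: their median control level was 78.0 CPM, against 14.8 CPM for the genes that rose and 20.3 CPM for all genes tested. All 8 rofecoxib libraries lay above every control for 40 genes (0.275%) and below every control for 74 (0.509%). The plot of all tested genes shows the falls lying towards the abundant end.

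**Figure D1:**
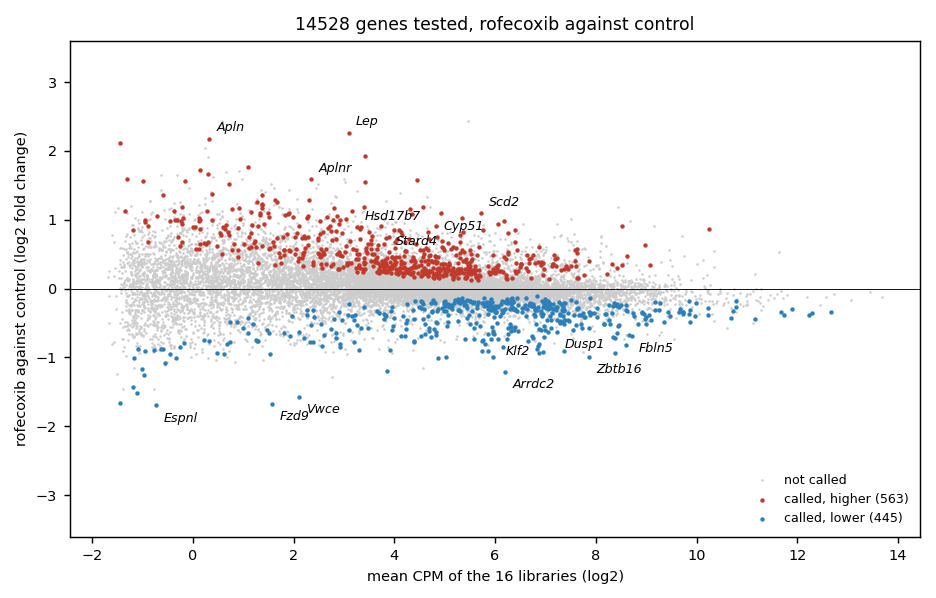
Each point is 1 of the 14528 genes tested; the horizontal axis is the mean level of the 16 libraries in log2 CPM and the vertical axis the log2 fold change of rofecoxib against control. Red points are the 563 genes called higher and blue points the 445 called lower; Lep at 2.26 and Apln at 2.18 lead the named rises, and Espnl at -1.70 and Fzd9 at -1.67 the named falls.

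The number of genes called depended on single libraries. It was 465 without control 1, 358 without control 2, 1789 without control 4, 596 without control 5, 504 without control 6 and 426 without control 7. On the rofecoxib side it was 536 without replicate 2, 532 without 4, 383 without 7 and 1945 without 8. Scaling by library size alone gave 1416 calls, of which 78.1% were higher, against 55.9% higher with TMM scaling. A core of 301 genes (137 higher, 164 lower) was called in each of the 24 fits that left out 1 library. Replicates 1 to 4 alone gave 42 calls (23 higher, 19 lower), of which 34 were among the 1008. Replicates 5 to 8 alone gave 401, of which 159 were among the 1008, and there most were falls (99 higher, 302 lower). Of the 1008 genes 5 were called in every one of the 37 alternative fits, among them Hsd17b7, Sc5d, Dusp1 and Rhbdd2.

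Many genes of cholesterol synthesis rose after rofecoxib. Of the 19 tested genes of the cholesterol synthesis list 11 rose and none fell, with a median log2 fold change of 0.48 against 0.023 over all genes tested. Their mean level was 3.76 to 4.03 log2 CPM in the 8 controls and 4.09 to 4.61 log2 CPM in the 8 rofecoxib libraries, with no overlap. The gene with the smallest p among those that rose was Hsd17b7 (ENSMUSG00000026675, chr1:171879464-171899574 on mm9), which encodes a ketosteroid reductase near the end of the pathway. It lay between 5.82 and 7.76 CPM in controls (median 6.78) and between 8.73 and 15.6 CPM with rofecoxib (median 12.0). Every rofecoxib library was above every control, and the rise was 0.90 ± 0.11 on the log2 scale (SE, n = 8 and 8, adjusted p = 9.4e-05).

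Cyp51, the lanosterol demethylase (ENSMUSG00000001467, chr5:4080943-4104948 on mm9), went from a control range of 18.5 to 26.0 CPM to one of 28.4 to 48.0 CPM (medians 20.6 and 35.5). Its rise was 0.75 ± 0.11 (adjusted p = 0.00115), with no overlap. Sc5d, the lathosterol oxidase of the next to last step (ENSMUSG00000032018, chr9:42062058-42072585 on mm9), went from a control range of 11.2 to 16.5 CPM to one of 19.9 to 27.1 CPM (medians 14.5 and 21.6). It rose by 0.67 ± 0.10 (adjusted p = 0.00122), also with no overlap.

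Idi1, the isopentenyl diphosphate isomerase, was higher by 0.72, Fdps, which makes farnesyl diphosphate, by 0.48, and the squalene epoxidase Sqle by 0.58 on the log2 scale (adjusted p of 0.00359, 0.00462 and 0.00536). Msmo1, the methylsterol monooxygenase, rose by 0.59, and Lss, which closes the sterol rings, by 0.54 (adjusted p of 0.00244 and 0.00893). In Idi1, Fdps, Sqle and Msmo1 all 8 rofecoxib libraries were above every control, and in Lss 7 of 8 were. Dhcr7 and Acat2 were called by a narrow margin, in 16 and 8 of the 24 fits that left out 1 library. Their adjusted p reached 0.0727 without rofecoxib 7 and 0.103 without rofecoxib 2. Each of Hsd17b7, Cyp51, Sc5d, Idi1, Fdps, Sqle, Msmo1 and Lss was called in all 24 of those fits, and the list's count of rises ran from 8 to 12 over them. Not every member had a positive value: Fdft1, squalene synthase, had a log2 fold change of -0.11 and Tm7sf2 of -0.14, neither called.

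Around the pathway, 5 of 15 tested genes of sterol regulation and transport rose and none fell (list median 0.20), with 3 to 6 rising when 1 library was left out, the highest without control 4. Insig1, which holds the SREBP complex in the endoplasmic reticulum and is itself an SREBP target, rose by 0.77 ± 0.15 (adjusted p = 0.00738), with 6 of 8 rofecoxib libraries above every control. Stard4, a cytosolic cholesterol carrier, rose by 0.53 ± 0.08 (adjusted p = 0.0023) with all 8 above. The HDL receptor gene Scarb1 rose by 0.60 but kept its call in 13 of 24 leave-one-out fits, with an adjusted p of 0.077 without control 7. Gramd1c, which encodes a protein that moves cholesterol between membranes, went the other way: it fell from a control range of 7.27 to 11.3 CPM to one of 4.02 to 6.75 CPM (medians 8.52 and 5.75). The groups did not overlap (log2 -0.64 ± 0.10, adjusted p = 0.00216).

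In fatty acid synthesis 2 of 14 genes rose. The stearoyl-CoA desaturase Scd2 went from a control range of 20.4 to 47.0 CPM to one of 48.4 to 97.4 CPM (medians 33.8 and 68.4), a rise of 1.09 ± 0.22 (log2, adjusted p = 0.00917). The fatty acid desaturase Fads1 rose by 0.32 (adjusted p = 0.00627), and in both genes the groups did not overlap. Fasn, fatty acid synthase, ranged from 189 to 2381 CPM in controls and from 242 to 2148 CPM with rofecoxib (medians 719 and 1133), with no rofecoxib library outside the control range (adjusted p = 0.615). The counts of sterol genes that rose were smaller in fits that held levels of other cells' genes as covariates. With brown adipocyte and skeletal muscle levels 1.14% of all genes were called, 0.578% higher, and 8 of the 19 cholesterol genes rose, among them Hsd17b7 at 0.88 (adjusted p = 0.00162), with a list median of 0.41. With general adipocyte, Schwann cell and macrophage levels 0.117% of all genes were called, 0.0757% higher and 0.0413% lower. In that fit 4 of the 19 cholesterol genes rose with a list median of 0.24, 2 of the 15 genes of sterol regulation and transport rose with a median of 0.02, and none of the 14 fatty acid synthesis genes rose, with a median of -0.13.

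The upstream sequence of 3 of these genes is shown because 13 of the 14 cholesterol list genes with a RefSeq promoter window (92.9%) held a CCAAT box, against 42.5% of the 10863 tested genes with one. The windows span 250 bases before to 50 after the start site on GRCm38.p6, and CCAAT was searched on both strands. The share was 60.0% in the sterol regulation and transport list (6 of 10), 66.7% in the glucocorticoid list (8 of 12), whose called genes fell, 45.3% in all genes called higher and 39.1% in all called lower. CCAAT was searched after a first set of motifs had been counted. Of these, the sterol regulatory element TCACNCCAC was in 0 of the 14 and in 1.44% of all tested genes with a window. At that share 14 genes are too few for the 0 to be read. A short motif of this kind is common, and a match in a window is a description of letters, not a shown binding site. Below are the 250 bases before the start site, with each CCAAT or its reverse complement in capitals.
Hsd17b7 (chr1:169969206-169969455, minus strand): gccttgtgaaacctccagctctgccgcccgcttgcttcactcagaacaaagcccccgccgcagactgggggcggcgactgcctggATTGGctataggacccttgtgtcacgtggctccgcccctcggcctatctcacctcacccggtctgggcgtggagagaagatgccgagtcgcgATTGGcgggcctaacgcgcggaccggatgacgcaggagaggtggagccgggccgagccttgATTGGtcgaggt
Cyp51 (chr5:4104698-4104947, minus strand): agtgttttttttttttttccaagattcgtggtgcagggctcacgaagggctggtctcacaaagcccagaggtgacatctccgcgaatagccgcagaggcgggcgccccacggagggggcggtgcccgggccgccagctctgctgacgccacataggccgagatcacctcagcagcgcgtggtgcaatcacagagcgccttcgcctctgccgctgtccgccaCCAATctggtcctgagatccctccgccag
Sc5d (chr9:42264301-42264550, minus strand): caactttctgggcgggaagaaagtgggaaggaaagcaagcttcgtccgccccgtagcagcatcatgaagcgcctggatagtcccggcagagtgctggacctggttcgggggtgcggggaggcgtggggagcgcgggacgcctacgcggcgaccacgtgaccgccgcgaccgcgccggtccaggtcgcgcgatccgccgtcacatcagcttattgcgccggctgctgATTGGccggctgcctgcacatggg
Hsd17b7 has 3 copies, the nearest beginning 12 bases before the start site, and Cyp51 and Sc5d have 1 each, beginning 29 and 24 bases before it.

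**Figure D2:**
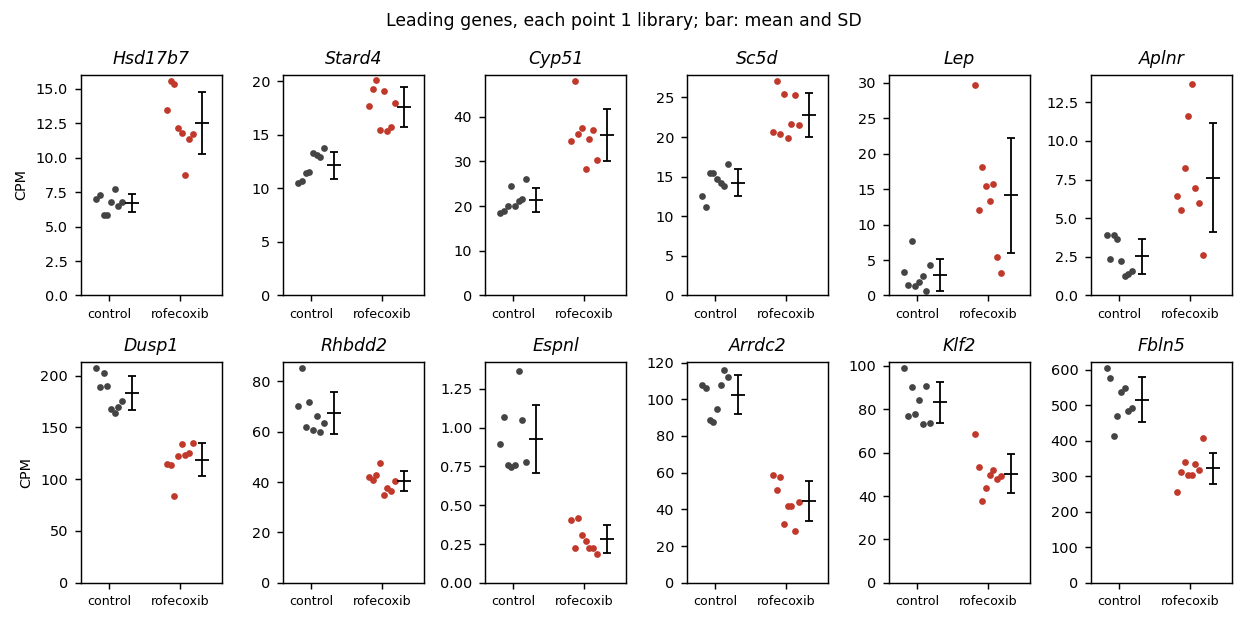
CPM of 12 genes in each of the 8 control and 8 rofecoxib libraries; the vertical axes start at 0 and the bars give the mean and SD. Hsd17b7, Stard4, Cyp51 and Sc5d (upper row, left) and Dusp1, Rhbdd2, Espnl, Arrdc2, Klf2 and Fbln5 (lower row) show no overlap between groups, whereas 2 of 8 Lep and 1 of 8 Aplnr points lie within the control range.

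Among the falls were Dusp1 and other genes known to be induced by glucocorticoids. Of 15 tested genes of the glucocorticoid list 8 fell and none rose, with a list median of -0.51. The list level was 8.34 to 8.54 log2 CPM in the controls and 7.65 to 8.22 log2 CPM with rofecoxib, so the groups did not overlap, and 7 to 9 fell when 1 library was left out. Dusp1, the phosphatase that switches off p38 and JNK kinases (ENSMUSG00000024190, chr17:26642333-26645666 on mm9), ran from 164 to 207 CPM in controls (median 182). With rofecoxib it ran from 83.8 to 135 CPM (median 122), every library below every control. The log2 fold change was -0.62 ± 0.08 (adjusted p = 0.000464).

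Arrdc2, Zbtb16 and Ddit4 had larger fold changes than Dusp1, and Sgk1 a smaller one. Arrdc2, an arrestin-domain adaptor, fell from a control range of 87.7 to 116 CPM to one of 28.4 to 58.5 CPM (medians 107 and 43.0), a log2 change of -1.21 ± 0.19 (adjusted p = 0.0023). Zbtb16, a zinc finger factor, fell from a control range of 265 to 354 CPM to one of 61.6 to 256 CPM (medians 309 and 168; log2 -0.99 ± 0.25, adjusted p = 0.0228). Neither gene's groups overlapped. The kinase gene Sgk1 changed by -0.51 ± 0.10 (adjusted p = 0.00719), from a control range of 181 to 207 CPM to one of 118 to 169 CPM (medians 195 and 132), again without overlap.

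For Ddit4, an inhibitor of mTORC1, and Fkbp5, a chaperone partner of the glucocorticoid receptor, 1 rofecoxib library stayed inside the control range. Ddit4 went from a control median of 79.0 CPM to 38.6 (log2 -1.0 ± 0.22, adjusted p = 0.0129) and Fkbp5 from 489.7 to 239 (log2 -0.82 ± 0.20, adjusted p = 0.0216). Errfi1, an inhibitor of EGF receptors, and the metallothionein Mt1 also fell, with log2 fold changes of -0.94 and -0.38. Tsc22d3, which encodes the glucocorticoid-induced leucine zipper, had a control median of 141 CPM and a rofecoxib median of 75.8, but rofecoxib 2 stood at 189 CPM and the gene was not called (adjusted p = 0.0664). The clock gene Per1, at 185 to 271 CPM in controls and 116 to 266 CPM with rofecoxib, was not called either (adjusted p = 0.183). With the brown adipocyte and muscle covariates 4 of the 15 list genes were lower, where 0.558% of all genes were, and the list median was -0.50. With the adipocyte, Schwann cell and macrophage covariates 1 of the 15 was lower, where 0.0413% of all genes were, and the median was -0.52.

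The upstream sequences of Dusp1 and Sgk1 are shown because they hold the cyclic AMP response element TGACGTCA and the glucocorticoid receptor palindrome, respectively. TGACGTCA reads the same on either strand, and so does the pattern searched for the palindrome, whose unspecified bases let a single match differ between strands. The palindrome was in 6 of the 348 genes called lower that had a window (1.72%), in 0.456% of those called higher and in 0.405% of all tested genes with a window. TGACGTCA was in 5.46% of the genes called lower, 2.28% of those called higher and 3.44% of all. Of the 12 glucocorticoid list genes with a window, Sgk1 and Mt1 held the palindrome and Dusp1 and Errfi1 held TGACGTCA. Sgk1 has several annotated starts, and the palindrome is in the window of 1 of them. The motif letters are in capitals.
Dusp1 (chr17:26508473-26508722, minus strand): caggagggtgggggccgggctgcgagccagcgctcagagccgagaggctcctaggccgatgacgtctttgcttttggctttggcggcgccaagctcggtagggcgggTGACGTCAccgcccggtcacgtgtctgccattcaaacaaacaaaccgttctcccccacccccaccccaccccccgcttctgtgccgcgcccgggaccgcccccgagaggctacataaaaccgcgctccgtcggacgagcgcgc
Sgk1 (chr10:21993640-21993889, plus strand): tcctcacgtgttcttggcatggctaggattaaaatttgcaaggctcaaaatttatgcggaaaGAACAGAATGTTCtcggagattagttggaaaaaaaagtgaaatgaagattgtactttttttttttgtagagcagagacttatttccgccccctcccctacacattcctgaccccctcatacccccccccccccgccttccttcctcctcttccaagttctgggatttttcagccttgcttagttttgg
The response element begins 143 bases before the Dusp1 start site and the palindrome 188 bases before this Sgk1 start site.

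Among genes that FOXO factors are known to induce, and related arrestin-domain genes, 6 of 15 fell and none rose (list median -0.37; Arrdc2 and Klf15 are shared with other lists). Sesn3, a stress sensor upstream of mTORC1, fell from a control range of 5.86 to 8.57 CPM to one of 3.99 to 6.61 CPM (medians 7.68 and 4.25; log2 -0.68 ± 0.13, adjusted p = 0.00704), with 7 of 8 rofecoxib libraries below every control. Arrdc3, Ccng2 and Klf15 were called with 16, 21 and 18 of 24 leave-one-out fits. Their highest adjusted p were 0.0685 without rofecoxib 7, and 0.0612 and 0.0721 without control 7, and the list's count of falls ran from 2 without control 7 to 8 without rofecoxib 8. With the brown adipocyte and muscle covariates 2 of the 15 fell, where 0.558% of all genes did. With the adipocyte, Schwann cell and macrophage covariates none did, where 0.0413% of all genes did (list median -0.33). Outside that list, and picked out by their values, Bcl6, a transcriptional repressor, and Bcl2l1, which protects cells from apoptosis, had log2 fold changes of -0.61 and -0.92 with no overlap (adjusted p of 0.00627 and 0.00536).

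Klf2, a flow-responsive factor of endothelium (ENSMUSG00000055148, chr8:74842730-74845757 on mm9), was lower in every rofecoxib library than in every control. It went from a control range of 73.2 to 98.8 CPM (median 81.2) to one of 37.6 to 68.7 CPM (median 49.4), a log2 change of -0.73 ± 0.12 (adjusted p = 0.00327). Of 14 tested Krüppel-like factors 4 fell and none rose, and the list median was -0.16. The others that fell were Klf12, Klf13 and Klf15, called in 14, 13 and 18 of the 24 leave-one-out fits, and without control 1, control 7, control 8, rofecoxib 6 or rofecoxib 7 the count was 1. Nos3, the endothelial nitric oxide synthase, which Klf2 is known to induce, was not called (20.3 to 45.9 CPM in controls, 24.4 to 49.9 CPM with rofecoxib, adjusted p = 0.384).

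The fall with the smallest p was in a gene of very low level. This gene, Espnl, encodes an espin-like protein of sensory hair cells (ENSMUSG00000049515, chr1:93218450-93245082 on mm9). It lay between 0.744 and 1.37 CPM in controls and between 0.187 and 0.418 CPM with rofecoxib (medians 0.839 and 0.247). There was no overlap, and the log2 change was -1.70 ± 0.20 (adjusted p = 9.4e-05). Rhbdd2, a rhomboid-domain membrane protein (ENSMUSG00000039917, chr5:136108286-136122520 on mm9), fell from a control range of 59.8 to 85.3 CPM to one of 35.0 to 47.7 CPM (medians 64.9 and 40.6). Its change of -0.74 ± 0.11 (adjusted p = 0.00115) again left no overlap. Vwce and Fzd9 had the largest falls among called genes of at least 1 CPM: Vwce went from a median of 5.98 to 1.78 CPM and Fzd9, a Wnt receptor, from 4.57 to 1.27 CPM. Their log2 changes were -1.57 ± 0.29 and -1.67 ± 0.32 (adjusted p of 0.00574 and 0.00627). Further falls with no overlap were Ip6k2 at -0.59, Trafd1, a brake on innate immune signalling, at -0.36, and Samhd1, a nucleotide-cleaving enzyme, at -0.51.

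Some genes of the matrix fell and most did not pass the test. Of 26 tested genes of elastic fibre and matrix assembly 8 fell and none rose (median -0.23), and of 18 collagen genes 6 fell and none rose (median -0.27). Fbln5, fibulin-5, needed to lay elastin onto microfibrils (ENSMUSG00000021186, chr12:102984573-103057467 on mm9), fell from a control range of 414 to 605 CPM to one of 257 to 407 CPM (medians 515 and 315). The groups did not overlap (log2 -0.68 ± 0.11, adjusted p = 0.00216). Mfap4, a microfibril protein, the lysyl oxidase relative Loxl3 and biglycan, Bgn, fell, with log2 fold changes of -0.52, -0.42 and -0.34 (adjusted p of 0.0206, 0.00658 and 0.0211). Elastin itself, Eln, ranged from 515 to 1379 CPM in controls and from 333 to 1388 CPM with rofecoxib (medians 819 and 691) and was not called (adjusted p = 0.567).

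Among collagens Col1a2, a chain of the main fibrillar collagen, fell from a control range of 2153 to 3088 CPM to one of 1652 to 2404 CPM (medians 2620 and 1910), with 6 of 8 rofecoxib libraries below every control (log2 -0.45 ± 0.10, adjusted p = 0.0133). Col1a1 had a log2 fold change of -0.49, a call kept in 18 of 24 leave-one-out fits and lost without control 2 among others (adjusted p = 0.0756). Col18a1 and Col5a1 had log2 fold changes of -0.38 and -0.36, and both lost the call without control 2 (adjusted p of 0.0571 and 0.0749). Col3a1 at -0.34 did not pass (adjusted p = 0.0628). Without control 2 the falls numbered 4 in the matrix list and 1 in the collagen list, and without rofecoxib 8 they numbered 11 in each. With the brown adipocyte and muscle covariates 2 of the 26 matrix genes and 1 of the 18 collagens were called lower. In that fit 0.558% of all genes were. With the adipocyte, Schwann cell and macrophage covariates none of either was, where 0.0413% of all genes were (list medians -0.13 and -0.20). Of 18 smooth muscle contractile genes 1 fell, Synpo2, whose call was kept in 6 of 24 leave-one-out fits and lost without rofecoxib 7 among others (adjusted p = 0.0986), and without rofecoxib 8 the count was 4. Acta2 and Myh11 had log2 fold changes of -0.12 and -0.16, not called (adjusted p of 0.48 and 0.224).

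The 10 largest rises among genes of at least 1 CPM included Lep, Irs3, Trarg1 and Angptl8, which are genes of fat cells, and Apln and Aplnr, described below. Lep, which encodes the adipocyte hormone leptin (ENSMUSG00000059201, chr6:29010018-29024079 on mm9), lay between 0.572 and 7.74 CPM in controls (median 2.29) and between 3.23 and 29.7 CPM with rofecoxib (median 14.4). Of 8 rofecoxib libraries 6 were above every control, and the log2 rise was 2.26 ± 0.43 (adjusted p = 0.00627). General adipocyte genes moved in the same direction: 6 of 19 rose and none fell, with a median of 0.80. The count was 12 without control 4 and 11 without rofecoxib 8, and it was 1 without control 1, 2, 5, 6, 7 or 8 or without rofecoxib 2, 4 or 7. Cd36, Pparg and Aqp7, a fatty acid transporter, the master factor of fat cells and a glycerol channel, rose by 0.91, 1.19 and 1.19, in 14, 12 and 9 of the leave-one-out fits. Their adjusted p reached 0.0745 without control 2, and 0.105 and 0.101 without rofecoxib 7. Adipoq, adiponectin, was not called, at 49.3 to 288 CPM in controls and 84.3 to 353 CPM with rofecoxib (log2 0.63 ± 0.29, adjusted p = 0.158). In the fit with brown adipocyte and muscle levels Lep stood at 2.22 (adjusted p = 0.0187) and was the 1 general adipocyte gene called. With the general adipocyte, Schwann cell and macrophage covariates none of the 19 was called, Lep included, and the list median was -0.08. That fit holds the level of this same list.

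Genes of mitochondrial fuel use had log2 fold changes above 0, and few passed the test. All 24 fatty acid oxidation genes, all 18 citrate cycle genes and all 28 nuclear-encoded respiratory chain genes had log2 fold changes above 0, against 54.9% of all genes tested. Called were 4, 0 and 8 of them, and the medians were 0.66, 0.44 and 0.39. At an unadjusted p under 0.05, which 28.2% of all genes reached, the counts were 21, 15 and 27. Without control 4, the control with the most adipocyte RNA, the calls were 20, 16 and 27. Without rofecoxib 8, the rofecoxib library with the least, they were 18, 13 and 26, and without rofecoxib 5 they were 12, 7 and 24. Without control 7 or rofecoxib 7 they were 1, 0 and 0. Control 7 had the least adipocyte RNA of the controls, and rofecoxib 7 the highest brown adipocyte level of its group. Scaling by library size alone gave 10, 5 and 19 calls. With the brown adipocyte and muscle covariates the calls were 2, 0 and 0, where 1.14% of all genes were called. With the adipocyte, Schwann cell and macrophage covariates none was called, where 0.117% of all genes were, and the medians were 0.13, 0.14 and 0.19. Ehhadh, a peroxisomal oxidation enzyme, rose by 0.77 ± 0.16 (adjusted p = 0.00989) and by 0.51 with the brown adipocyte and muscle covariates (adjusted p = 0.04). Ucp3, an uncoupling protein relative, rose by 1.55 and, with the same brown adipocyte and muscle covariates, by 0.78 (adjusted p of 0.0321 and 0.0493). Its call was lost without rofecoxib 7 (adjusted p = 0.0794). Brown adipocyte genes had a median of 0.81 with 1 of 13 called, the fatty acid binding protein Fabp3, whose adjusted p was 0.0516 without rofecoxib 7. Ucp1 itself ran from 57.7 to 602 CPM in controls and from 151 to 986 CPM with rofecoxib (medians 158 and 438; not called, adjusted p = 0.126).

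**Figure D3:**
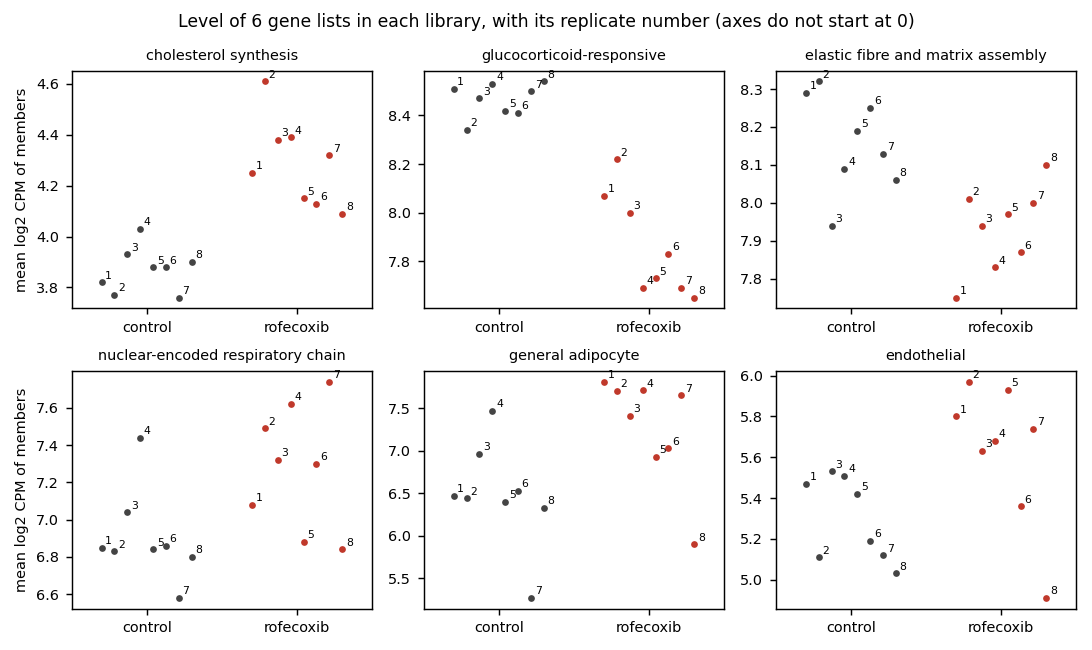
Mean log2 CPM of the members of 6 gene lists in each library, numbered by replicate, for 8 controls and 8 rofecoxib libraries. The cholesterol and glucocorticoid lists do not overlap between groups, whereas in the general adipocyte list control 4 reaches 7.47 and rofecoxib 8 is at 5.90.

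Apelin and its receptor both rose. Aplnr, the receptor (ENSMUSG00000044338, chr2:84976315-84980281 on mm9), ran from 1.27 to 3.94 CPM in controls and from 2.62 to 13.7 CPM with rofecoxib (medians 2.30 and 6.69), 7 of 8 above every control. Its log2 rise was 1.59 ± 0.30 (adjusted p = 0.00627) and 1.38 with the fat and muscle covariates (adjusted p = 0.0222). Apln, the ligand, rose by 2.18 ± 0.45 (adjusted p = 0.00949) from a median of 0.402 to 1.78 CPM. Rofecoxib 4 stood highest at 5.80 CPM, and with the covariates the gene was not called (adjusted p = 0.0531).

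Of 22 apelin, VEGF and angiopoietin genes 6 rose and none fell (median 0.31), among them the VEGF co-receptor Nrp2 (0.67, adjusted p = 0.0136) and the angiopoietin receptor Tek (0.49, adjusted p = 0.0174). Of 19 endothelial markers 4 rose and none fell (median 0.26): Tek, Kdr, Egfl7 and Sox18. The count was 1 without control 2, 6 or 7 or rofecoxib 7, and 6 without rofecoxib 8. The general markers Pecam1 and Cdh5 had log2 fold changes of 0.10 and 0.19, not called. Endothelial marker levels summed to 1129 to 1430 CPM in controls and 979.6 to 1822 CPM with rofecoxib, so the groups overlapped. Kdr, the main VEGF receptor, rose by 1.09 ± 0.29 (adjusted p = 0.0285), a call kept in 17 of 24 leave-one-out fits and lost without control 7 among others (adjusted p = 0.0624). None of the 19 was called with either set of covariates, where 1.14% and 0.117% of all genes were. At those shares 19 genes are too few for this to be read. Of the 22 apelin, VEGF and angiopoietin genes 1 was called with the brown adipocyte and muscle covariates and none with the others (median 0.06). Whether endothelial RNA had a part in the rises of the apelin and VEGF genes was not tested.

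**Figure D4:**
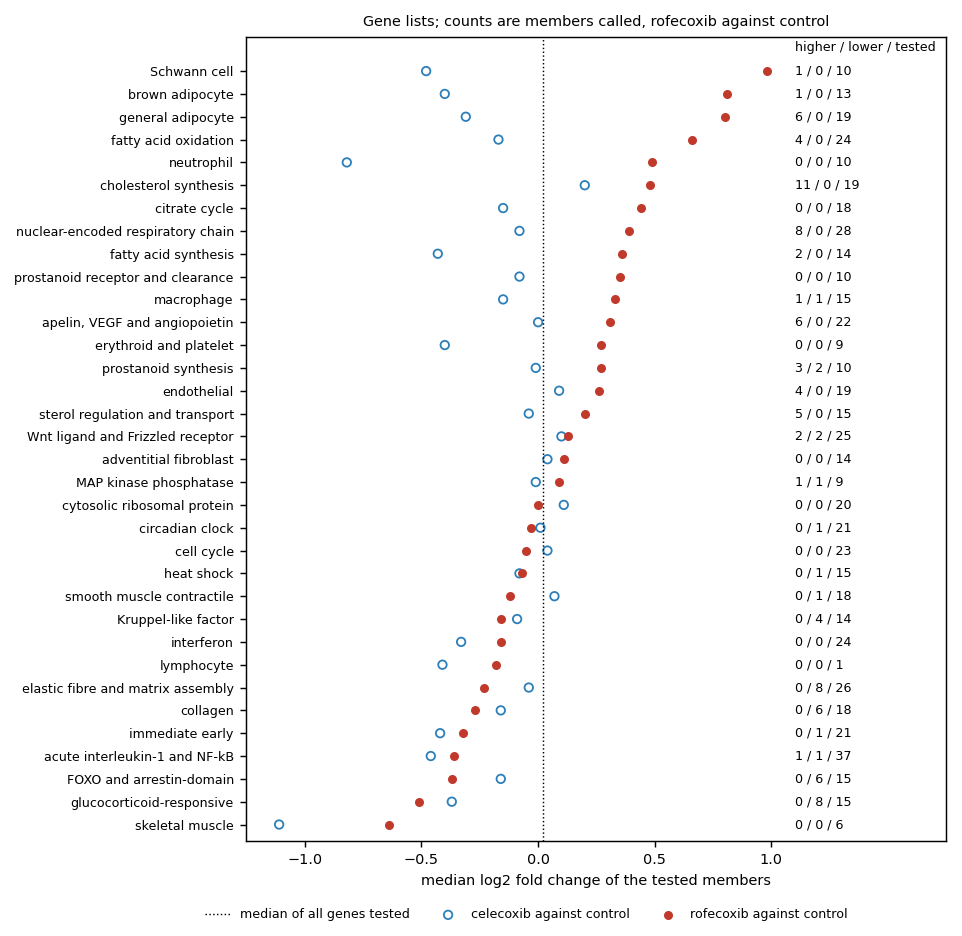
Median log2 fold change of the tested members of each of 34 gene lists, rofecoxib against control in filled red and celecoxib against the same controls in open blue; the dotted line is the median of all genes, 0.023. Numbers at the right are the members called higher, called lower and tested for rofecoxib; cholesterol synthesis had 11 higher of 19 and the glucocorticoid list 8 lower of 15.

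The enzymes around the drug's target moved in both directions. Ptgs2, which encodes COX-2 (ENSMUSG00000032487, chr1:151947052-151955342 on mm9), ran from 79.9 to 194 CPM in controls (median 128) and from 50.7 to 133 CPM with rofecoxib (median 79.2). The groups overlapped, with 4 of 8 rofecoxib libraries below every control. The log2 fold change of -0.72 ± 0.22 (adjusted p = 0.0492) was called in 8 of 24 leave-one-out fits, with an adjusted p of 0.101 without rofecoxib 7. Ptgs1, which encodes COX-1, was not called (5.54 to 9.16 CPM and 5.95 to 12.0 CPM, log2 0.28, adjusted p = 0.278). Ptgis, prostacyclin synthase, fell from a median of 985 to 760.4 CPM (log2 -0.36 ± 0.10, adjusted p = 0.0348).

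Of the 10 genes of prostanoid synthesis, Tbxas1, thromboxane synthase, Hpgds, a prostaglandin D synthase, and Ptges2, a prostaglandin E synthase, rose by 0.87, 0.85 and 0.39 on the log2 scale. Tbxas1 and Hpgds are rare transcripts here, with control medians of 1.12 and 0.295 CPM. Each of the 5 called prostanoid genes lost its call in several leave-one-out fits. None was called with the fat and muscle covariates, where 1.14% of all genes were. Without rofecoxib 7 the adjusted p were 0.093 for Tbxas1, 0.109 for Hpgds and 0.0967 for Ptges2, and without rofecoxib 2 it was 0.0722 for Ptgis. None of 10 tested receptor and clearance genes was called, where 5 had an unadjusted p under 0.05, although 3 rose and 1 fell without rofecoxib 8. The nearest were the prostaglandin E receptors Ptger4, at 0.46 ± 0.14 (adjusted p = 0.0534), and Ptger3, at 0.62 ± 0.21 (adjusted p = 0.0675).

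Of 37 tested genes of the acute IL-1β and NF-κB response 1 rose and 1 fell, where 3.88% and 3.06% of all genes did. The list median was -0.36, and 9 of 37 had log2 fold changes above 0. The cytokine Il6 ran from 25.8 to 114 CPM in controls and from 10.4 to 124 CPM with rofecoxib (medians 39.7 and 36.1; log2 -0.47 ± 0.49, adjusted p = 0.542). The chemokine Cxcl1 ran from 228 to 1426 CPM and from 77.2 to 1062 CPM (log2 -0.66 ± 0.55, adjusted p = 0.438). In both genes the groups overlapped over most of their range. Il1b was the gene that rose, by 1.23 ± 0.33 from a median of 1.35 to 3.73 CPM (adjusted p = 0.0312), and it lost the call without control 6 among others (adjusted p = 0.0639). The gene that fell was Ptgs2.

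None of 24 interferon genes was called or had an unadjusted p under 0.05 in edgeR, and their median was -0.16. Of 21 immediate early genes 1 fell, Btg2, an antiproliferative factor, at -0.70 ± 0.15 (adjusted p = 0.0121). None of 23 cell cycle genes and none of 20 cytosolic ribosomal protein genes was called. An unadjusted p under 0.05, which 28.2% of all genes reached, was seen in 7 and 1 of them. Rpl3 had a log2 fold change of -0.02 ± 0.04. Of 25 Wnt ligand and Frizzled receptor genes 2 rose, the ligand Wnt16 at 0.86 ± 0.20 (adjusted p = 0.0186) and the receptor Fzd7, and 2 fell, Fzd9 and the secreted Wnt-binding protein Sfrp2. Fzd7 and Sfrp2 kept the call in 13 and 22 of 24 leave-one-out fits, with adjusted p of 0.0892 without rofecoxib 4 and 0.0566 without control 2. Of 15 heat shock genes 1 fell, the small chaperone Hspb8 at -0.39, and of 21 clock genes 1 fell, the nuclear receptor Rora at -0.32 (adjusted p of 0.00788 and 0.0207). These single falls, like that of Btg2, stand beside 3.06% of all genes tested called lower. The tubulin genes Tubb5 and Tuba1b rose by 0.36 and 0.41 (adjusted p of 0.00627 and 0.0117). The MAP kinase phosphatase Dusp4, unlike Dusp1, rose, by 1.77 ± 0.41 from a median of 1.03 to 2.75 CPM (adjusted p = 0.0191), and with the fat and muscle covariates it was not called (adjusted p = 0.072).

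Markers of other cells overlapped between the groups. Macrophage markers summed to 385 to 501 CPM in controls and 328 to 603 CPM with rofecoxib, with 1 of 15 higher, Mrc1 (adjusted p = 0.0791 without rofecoxib 7), and 1 lower, Mertk, a receptor for dying cells, at -0.45 ± 0.10 (adjusted p = 0.0162). Neutrophil markers summed to 23.3 to 94.5 CPM and 23.7 to 138 CPM, with none of 10 called and 1 at an unadjusted p under 0.05. Schwann cell markers had a median of 0.98, higher than any other list, yet 1 of 10 was called, S100b. Their sums were 131 to 329.5 CPM in controls and 136 to 806 CPM with rofecoxib, and 4 of the 10 were called without control 5. What part Schwann cell RNA had in other results was looked at only in the fit with adipocyte, Schwann cell and macrophage covariates together. That fit called 17 genes and cannot separate this part from the group difference. None of 14 adventitial fibroblast, 9 erythroid and platelet and 6 skeletal muscle genes was called, with 2, 0 and 1 at an unadjusted p under 0.05. Of 14 lymphocyte markers 1 had enough reads to test, Lck, with medians of 1.79 and 1.44 CPM (not called, adjusted p = 0.584). Ighm, an immunoglobulin heavy chain, rose by 1.93 ± 0.52 (adjusted p = 0.0295) but ran from 2.47 to 58.4 CPM within the rofecoxib group, and lost the call without rofecoxib 5 (adjusted p = 0.0645).

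Celecoxib, the other COX-2 inhibitor, was given at 100 mg/kg/day, so the drugs were compared at different doses and share the 8 controls. Against those controls 5 genes were called for celecoxib (0.0344%): Dusp1, Rhbdd2, Pms2, Ddit4 and Gadd45g. All 5 were also called for rofecoxib. Of the 445 genes called lower with rofecoxib 436 had a celecoxib value below 0. Of the 563 called higher 449 had one above 0, both against the same controls. Genes picked for a difference from these controls tend to differ the same way in any other group set against them. The like signs were therefore partly built in, and a shared effect of the drugs was not tested. Side by side, Dusp1 changed by -0.62 with rofecoxib and -0.45 with celecoxib, Rhbdd2 by -0.74 and -0.58, and Ddit4 by -1.0 and -1.36. Cyp51 had log2 fold changes of 0.75 and 0.49, the celecoxib value not called. The cholesterol list median was 0.48 with rofecoxib and 0.20 with celecoxib, and the general adipocyte median 0.80 and -0.31. The glucocorticoid list median was -0.51 and -0.37, and none of its 15 genes was called between the drugs.

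**Figure D5:**
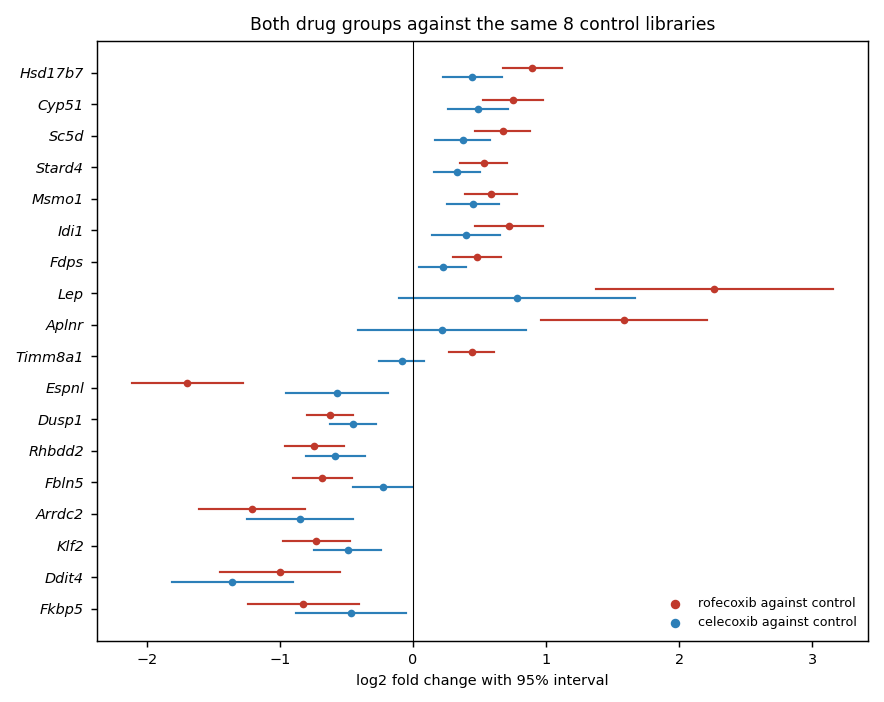
Log2 fold change with its 95% interval for 18 genes, rofecoxib in red and celecoxib in blue, both against the same 8 control libraries, which the drug groups share. Cyp51 is at 0.75 with rofecoxib and 0.49 with celecoxib, and Espnl is at -1.70 with rofecoxib and -0.57 with celecoxib.

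A direct test of rofecoxib against celecoxib called 710 genes (4.89%), 628 higher (4.32%) and 82 lower (0.564%). That number was not stable: it was 0 without rofecoxib 2, 3 or 7 or without celecoxib 2 or 3, with 2824, 3250, 3145, 2883 and 2834 genes at an unadjusted p under 0.05. It was 3, 2 and 1 without rofecoxib 4, celecoxib 4 and celecoxib 5, 240 without rofecoxib 1, 447 and 363 without control 2 and control 6, and 1997 without rofecoxib 8. DESeq2 called 1419. Both tests use the same 8 rofecoxib libraries, so an overlap between them is partly built in. Genes called both against control and against celecoxib numbered 213, of which 174 were higher and 39 lower with rofecoxib. Among them, Espnl was lower than with celecoxib (log2 difference -1.12 ± 0.21, adjusted p = 0.0347), as was Fbln5 (-0.45 ± 0.11, adjusted p = 0.0369), and Hsd17b7 was higher by 0.45 ± 0.11 (adjusted p = 0.0369). Timm8a1, a mitochondrial import chaperone, was higher by 0.53 ± 0.08 (adjusted p = 0.0181). For Dusp1 the difference between the drugs was -0.17 with a 95% interval of -0.34 to 0.00 (adjusted p = 0.222), not called.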

How the data were processed

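RNA of whole thoracic aortas (TruSeq, poly(A)-selected, per the labels' protocols) was measured in 24 libraries, 8 a group, which the series' design text calls biological replicates. The values the authors deposited are read counts, 1 row a gene. The submitters' processing notes name CASAVA 1.8.1, STAR 2.5.1b and mm9. Nothing used here states the counting tool, annotation or strand setting; overlapping and antisense genes may share reads, and gene coordinates are printed as the table gives them. Totals lie within 0.145% of each other, and whether reads were resampled to a like depth is not given in the sources used here. Libraries were built over several days per the labels' protocols, with no day for each library. No value column was left unmapped.

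The counts were fitted with edgeR 4.0.16 (R 4.3.3) by quasi-likelihood over all 24 libraries, 1 mean per group, with TMM scaling, its default filter (14528 genes) and Benjamini-Hochberg adjustment. All tests were two-sided, a gene was called at an adjusted p under 0.05, and fold changes are edgeR's at its default settings. The log2 CPM values behind the list levels used a prior count of 2. SEs are from the fit, and intervals are 95%. The common biological coefficient of variation was 19.6%. Alternatives used DESeq2 1.42.0 and limma 3.58.1. The fit was tested on simulated counts with known changes. List members and all other choices were made with earlier results of these data known. Of 610 list symbols 609 matched the table. Named genes were the 10 smallest p in each direction, the 10 largest rises and falls of at least 1 CPM, up to 4 called members a list (or the 2 nearest), genes called in every alternative, and Ptgs1, Ptgs2, Klf2, Cyp51 and Dusp1. A further 27 genes, mostly list members such as Idi1, Fkbp5, Adipoq and Eln, and others such as Bcl6, Bcl2l1, Timm8a1, Tubb5 and Samhd1, were named after their values were seen, as were the members printed with a fold change alone. Promoter windows came from RefSeq on GRCm38.p6, matched by symbol for 10863 of 14482 tested symbols. Some items are not reported here.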

Additional observations from a re-analysis of the deposited data

Results flagged for a closer look

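In 33 of 338 groups of 8 libraries looked at (named genes and gene lists), 1 library stood apart from the rest, where chance marks about 1 in 20. All values are CPM unless given as a list's mean log2 CPM, with the group's median beside them.

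Control 4 stood above the other controls in genes of fat and mitochondria. It was at 1.58 for Irs3 (median 0.454), 14.8 for Ucp3 (3.99), 26.4 for Ptges2 (17.8), 2.33 for Ppara (1.37), 153 for Etfdh (83.8) and 312 for Mdh2 (215). It was also at 146.7 for Sdhd (84.0), 113 for Ndufv2 (87.2), 53.6 for Acat2 (29.7) and 602.5 for Ucp1 (158). This library had the highest summed level of general adipocyte genes among controls. Control 3 stood high in muscle genes, at 7.61 for Actn3 (0.769), 4.30 for Mylpf (0.403) and 2.39 log2 CPM for the skeletal muscle list (-0.04), and low for Fkbp5 at 394.9 (489.7).

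Rofecoxib 8 stood low for the general adipocyte list at 5.90 log2 CPM (7.53) and for Timm8a1 at 4.12 (5.01), and high for Acta2 at 17400 (12180) and 1110050K14Rik at 2.06 (0.980). Rofecoxib 2 stood high for Cyp51 at 48.0 (35.5), Sqle at 55.1 (40.4), Slc45a3 at 37.7 (19.9) and Tsc22d3 at 188.6 (75.8). Rofecoxib 3 was at 83.8 for Dusp1 (122.5), further below the controls than the rest, and at 3.02 for Fzd9 (1.27). Rofecoxib 4 was at 5.80 for Apln (1.78).

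Rofecoxib 5 stood high for the Schwann cell list at 5.47 log2 CPM (3.55) and for Il6 at 124.5 (36.1), and low for the clock list at 5.33 log2 CPM (5.81). Rofecoxib 7 was at 1.11 for Hpgds (0.515) and 14.2 for Pf4 (8.72). Control 1 was at 5.35 log2 CPM for the Krüppel-like factor list (5.20), control 2 at 85.3 for Rhbdd2 (64.9) and control 8 at 48.6 for Angptl7 (16.6).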

How the results depend on the processing

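Rofecoxib against control gave 1008 calls. No filter on low counts gave 557, DESeq2 1812, limma voom with sample weights 2448, a term for replicates 1 to 4 and 5 to 8 1735, replicates 1 to 4 alone 42 and replicates 5 to 8 alone 401, of which 24.7% were higher against 55.9% of the 1008. Covariates for brown adipocyte and skeletal muscle levels gave 165, of which 155 were among the 1008, and covariates for general adipocyte, Schwann cell and macrophage levels gave 17, of which 15 were. Leaving out 1 library at a time gave 358 to 1945. DESeq2's size factors gave 1000, a mean of at least 1 CPM 1024 and only the groups compared 897. Same-numbered libraries of different groups had deviations correlated from -0.303 to 0.56, with 12 of 24 pairs over 0.1. A library's best correlate among the 8 of another group shared its number in 13 of 48 cases. The main fit did not pair the samples by number, as the animals differ between groups. Whether the numbers carry a shared structure was not tested, and these values do not exclude it. With the replicate block 1187 genes were called.

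Rofecoxib against celecoxib gave 710 calls. DESeq2 gave 1419 and replicates 1 to 4 alone 2073. The count was 0 with no filter, with only the groups compared, with the replicate block, with replicates 5 to 8 alone and with either set of covariates, at 4367, 2816, 3169, 896, 1579 and 774 genes with an unadjusted p under 0.05. Leaving out 1 library gave 0 to 1997. The causes were not tested.

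No named call changed sign. Of 102 named genes called, 61 kept the call in each fit without 1 library, 79 with no filter, 100 with DESeq2's size factors, 102 with DESeq2, 87 with only the groups compared, 44 with the brown adipocyte and muscle covariates, 10 with the other covariates, 13 in replicates 1 to 4 and 37 in replicates 5 to 8. Depth in the deposited counts was 21668798 to 21700121 reads a library, so genes under 1 CPM, among which were 40 of the calls, rest on few reads.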
